A study of Mus musculus with 24 samples.

Results

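Fatty acid oxidation and the target genes of the peroxisome proliferator-activated receptors (PPARs) were followed in AML-12 cells, an established line of mouse hepatocytes. The set held 35 genes, taken by symbol from a count table of 55487 genes, of which 21543 had at least 1 count. It comprised 5 transcription regulators, 3 genes of the carnitine shuttle, 13 enzymes of mitochondrial β-oxidation, 3 peroxisomal genes and 11 further PPAR targets. Expression was measured by BRB-seq, which reads the 3′ end of each mRNA, in 24 libraries that formed 6 groups of 4. All cells were kept without dexamethasone and in charcoal/dextran-treated serum. In BSA the cells were given albumin, the carrier, and in PAL 0.25 mM palmitate bound to albumin. The remaining groups received palmitate as PAL did and were transfected for the last 24 h with endoribonuclease-prepared small interfering RNA (esiRNA). CON was given 200 nM of esiRNA to *Egfp*, a gene that mouse cells lack, BMAL1 was given 100 nM to *Bmal1*, CHREBP was given 100 nM to *Chrebp*, and BOTH was given esiRNAs to both genes at 200 nM in total. BMAL1 and CHREBP thus differed from CON in the total amount of esiRNA as well as in its target.

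Long-chain fatty acids are activated to acyl-CoA esters, transferred to carnitine for passage into mitochondria, and shortened there by repeated cycles of dehydrogenation, hydration, a second dehydrogenation and thiolysis. Very long and branched chains begin this process in peroxisomes. PPARα is the main fatty acid-sensing nuclear receptor of hepatocytes. With its partner RXR it binds direct repeats of a short half-site, and in liver it drives genes of all these steps during fasting.

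With palmitate, 4 of 30 tested genes were called higher and 2 lower, beside 6.65% and 7.6% of all genes tested. With esiRNAs to both *Bmal1* and *Chrebp*, 4 of 31 were called higher and 3 lower than with control esiRNA, beside 5.99% and 3.75%. In BMAL1 against CON 0 of 31 were called, where 0.49% of all genes were. The gene with the largest called changes was *Vnn1*, which encodes the pantetheinase vanin-1, an enzyme of coenzyme A recycling.

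The targeted genes were checked first. Normalized counts of *Arntl* (*Bmal1*) were 57.5, 49.2, 41.9 and 30.1 in CON and 23.1, 22.3, 25.9 and 32.9 in BMAL1, a log2 fold change of -0.78 ± 0.28 (SE). It has no adjusted p there, since the independent filtering of DESeq2 set the gene aside in that comparison. *Mlxipl* (*Chrebp*) stood at 38.6, 30.3, 44.4 and 29.0 in CON and at 23.3, 32.7, 22.1 and 25.5 in CHREBP, a log2 fold change of -0.46 ± 0.28 that did not pass the test (DESeq2 Padj = 0.593). In BOTH, the log2 fold change against CON was -0.98 ± 0.28 for *Arntl* and -1.07 ± 0.30 for *Mlxipl* (DESeq2 Padj = 0.00994 and 0.00762). By the library positions in the labels, column 1 held BSA and PAL, column 2 held CON and BMAL1, and column 3 held CHREBP and BOTH. When CHREBP or BOTH is set against CON or BMAL1, the esiRNA to *Chrebp* and the column cannot be told apart, and in CON against PAL transfection can be told apart from neither column nor row. BSA, CON and CHREBP lay in rows A to D and PAL, BMAL1 and BOTH in rows E to H, so row cannot be told apart from palmitate in PAL against BSA, or from the *Bmal1* esiRNA wherever 1 group had it and the other did not.

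The libraries held between 5399700 and 11237474 gene counts. Of 14 hepatocyte markers, 11 were over 3 counts in every library, albumin and *Hnf4a* among them. The exceptions were *Apoa1* (2 to 15 counts), *Cps1* (0 to 4) and *Asgr1* (0 to 8). The keratin genes *Krt18* (18999 to 47564 counts) and *Krt8* (7414 to 19893) weighed most in the sum of the 14. Albumin had 86 to 242 counts. This sum, mainly a keratin level, was 6464 to 6862 CPM (counts scaled to the library total) in BSA and 7486 to 8132 in PAL. With esiRNA, CON held 7300 to 7492 and BMAL1 7043 to 7174, while CHREBP ranged from 6857 to 7593 and BOTH from 6605 to 7345. All 5 adipocyte markers were at or under 3 counts throughout, whereas 4 of 5 cholangiocyte markers (*Krt7*, *Krt19*, *Sox9* and *Spp1*) exceeded that in every library. The sum of the 5 was 2189 to 2366 CPM in BSA and 1841 to 1992 in PAL. CON held 1807 to 1912 and BMAL1 1900 to 2014, while CHREBP ranged from 1750 to 1942 and BOTH from 1674 to 1802. The summed level of 10 interferon-induced genes lay between 44.3 and 56.4 CPM in BSA and between 38.5 and 48.8 in PAL. With the control esiRNA it was 118 to 994 and with that to *Bmal1* 135 to 209. It reached 3089 to 6292 CPM in CHREBP and 5987 to 10051 in BOTH, and its part in the results for those groups was not tested. All libraries came from the same established hepatocyte line, so the marker sums describe expression in that line and not shares of cell types. In such bulk samples, fewer cells expressing a gene and less of its RNA per cell cannot be told apart.

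Of the 35 genes, 26 were over 3 counts in all 24 libraries. The carnitine shuttle genes and the 13 mitochondrial enzymes were all in that class. Several genes by which PPARα activity is often followed in liver were close to absent. *Cyp4a10* and *Cyp4a14*, ω-hydroxylases of fatty acids, had 6 counts and 1 count over all libraries. The fatty acid transporter gene *Cd36* had 6 and the hormone gene *Fgf21* had 3 counts in total. None of these 4 genes exceeded 3 counts in any library, so no fold change could be given. *Fabp1*, the liver fatty acid-binding protein gene, had 1 to 8 counts per library. Between 0 and 10 counts were found for *Pdk4*, a kinase that restrains glucose oxidation, and between 3 and 11 for *Ehhadh*, the peroxisomal bifunctional enzyme. A count of 3 corresponded to 0.267 CPM in the largest and 0.556 CPM in the smallest library, and this limit takes no account of spread between libraries.

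**Figure D1:**
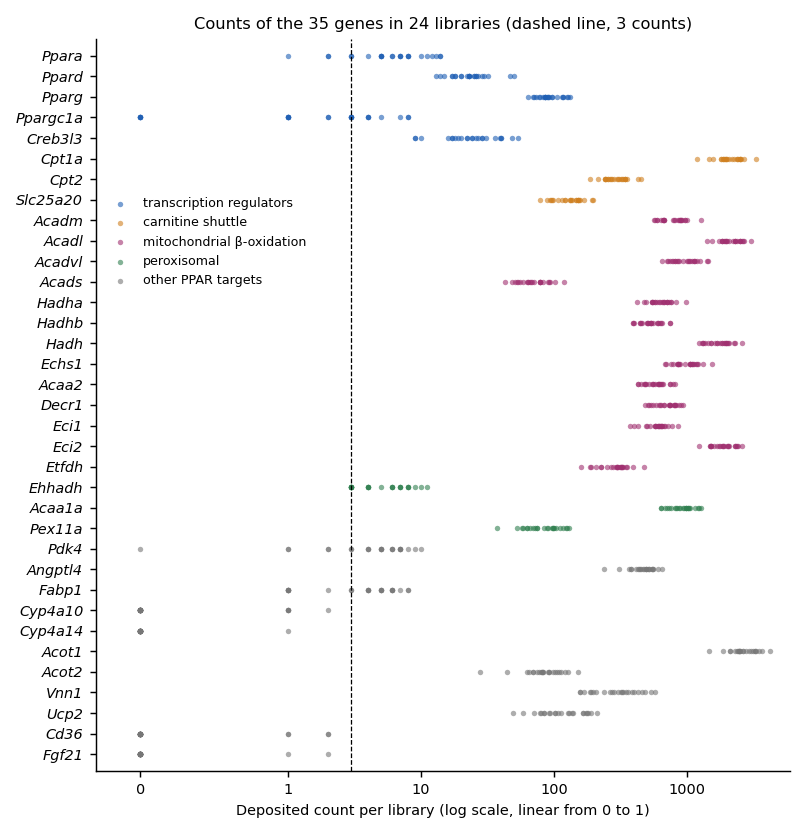
Deposited counts of the 35 genes, each point being 1 of the 24 libraries, on a logarithmic axis that is linear from 0 to 1; color marks the role of the gene and the dashed line 3 counts. *Cyp4a10*, *Cyp4a14*, *Cd36* and *Fgf21* lie left of the line in every library, and *Ppara*, *Ppargc1a*, *Ehhadh*, *Pdk4* and *Fabp1* lie around it.

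Sequence upstream of the start site was available from RefSeq (GRCm38.p6) for 29 of the 35 genes, in windows from 250 bases before to 50 bases after the start. *Vnn1*, *Angptl4*, *Acaa2*, *Decr1*, *Cyp4a10* and *Cyp4a14* had no window and were not searched. RefSeq starts can lie inside the gene spans of the GENCODE annotation given elsewhere, as they do for *Cpt1a* and *Fabp1*. The relaxed PPAR element AGGNCANAGGNCA was searched on both strands, and of the 29 genes it was found at *Fabp1* alone, against 0.451% of 27025 genes (0.381% of 32851 windows, since a gene can have several). Its strict form AGGTCANAGGTCA, which the relaxed one includes, was in none of them and in 0.0481% of genes (0.0396% of windows). The single half-site AGGTCA, a search added after the first was seen, was present at 8 genes (*Acadm*, *Acadvl*, *Cd36*, *Cpt1a*, *Creb3l3*, *Echs1*, *Fabp1* and *Pparg*) and at 18.1% of genes (16.3% of windows). The E-box CACGTG, the motif of BMAL1 with its partner CLOCK and part of CHREBP elements, was present at *Fgf21* and at 8.09% of genes (7.15% of windows). These matches are letters in a short window and carry no information on binding. The 150 bases before the start are given for *Fabp1*, the gene with the PPAR element, and for *Cpt1a*, *Acot1* and *Acot2*, which rose with palmitate. Capitals mark the element or half-site, read on the other strand in each case.
Fabp1, chr6:71199729-71199878, plus strand: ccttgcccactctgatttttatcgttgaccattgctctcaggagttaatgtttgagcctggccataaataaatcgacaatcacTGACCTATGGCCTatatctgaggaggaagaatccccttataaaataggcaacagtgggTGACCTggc
Cpt1a, chr19:3323151-3323300, plus strand: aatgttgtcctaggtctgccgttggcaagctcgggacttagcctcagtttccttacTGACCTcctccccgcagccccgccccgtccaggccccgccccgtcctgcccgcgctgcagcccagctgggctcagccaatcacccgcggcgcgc
Acot1, chr12:84009352-84009501, plus strand: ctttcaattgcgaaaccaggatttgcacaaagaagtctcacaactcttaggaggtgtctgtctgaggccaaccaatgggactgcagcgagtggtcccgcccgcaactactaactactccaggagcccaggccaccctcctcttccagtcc
Acot2, chr12:83987711-83987860, plus strand: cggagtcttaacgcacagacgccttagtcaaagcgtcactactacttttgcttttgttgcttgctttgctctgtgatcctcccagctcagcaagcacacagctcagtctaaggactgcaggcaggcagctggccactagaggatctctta
*Acot1* and *Acot2* encode related acyl-CoA thioesterases of the cytosol and of mitochondria. They are neighbors on chromosome 12 with 15616 bases between them, and 148 of the 250 bases upstream of each (59.2%) were identical when aligned with gaps. No other pair of windows was aligned, so whether this share exceeds that of unrelated windows was not tested.

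Among the regulators, no call was made in any comparison. *Ppara* had 1 to 14 counts per library, with normalized counts of 9.42, 7.74, 1.80 and 17.0 in BSA and 1.32, 14.1, 2.24 and 6.22 in PAL. These groups overlapped, and no difference was detectable at this depth. In the esiRNA groups *Ppara* had normalized counts of 11.7, 4.72, 2.47 and 8.12 in CON, 6.79, 5.31, 4.79 and 12.8 in BMAL1, 6.64, 4.30, 6.81 and 6.65 in CHREBP and 3.32, 6.19, 4.62 and 9.60 in BOTH. *Ppard*, the receptor gene expressed in most tissues, had normalized counts of 21.4, 30.9, 16.2 and 19.8 in BSA and 22.4, 25.1, 14.5 and 36.5 in PAL, and in CON 16.2, 33.7, 18.9 and 31.3. Its values were 20.4, 24.4, 19.2 and 20.1 in BMAL1, 18.8, 25.8, 17.0 and 25.5 in CHREBP and 32.1, 20.3, 30.0 and 25 in BOTH. The ranges of all 6 groups overlapped. *Pparg*, best known from adipocytes, was counted at 66.8, 88.0, 95.6 and 90.5 in BSA and at 102, 96.6, 92.8 and 88.6 in PAL, and its group means over all 6 groups ran from 85.2 to 98.4. The esiRNA libraries of *Pparg* were at 80.8, 85.0, 108 and 104 (CON), 117, 77.6, 82.4 and 117 (BMAL1), 128, 73.2, 72.3 and 97.5 (CHREBP), and 77.4, 84.9, 82.0 and 112 (BOTH). The coactivator gene *Ppargc1a* had raw counts of 3, 0, 4 and 3 in BSA, 0, 2, 0 and 3 in PAL, 0, 8, 7 and 1 in CON, 8, 4, 1 and 1 in BMAL1, 1, 5, 2 and 0 in CHREBP and 3, 4, 3 and 1 in BOTH. It exceeded 3 counts in 7 of the 24 libraries. *Creb3l3*, which encodes a hepatic transcription factor that acts with PPARα, had normalized counts of 20.6, 34.8, 16.2 and 12.7 in BSA, 25.1, 16.1, 22.4 and 17.1 in PAL, and 23.3, 36.4, 32.9 and 55.6 in CON. Its value in CHREBP was 11.1, 14.6, 33.2 and 18.8, in BMAL1 54.3, 25.5, 25.9 and 26.5, and in BOTH 24.3, 25.6, 10.4 and 29.8. The log2 fold change of *Creb3l3* was 0.88 ± 0.33 in CON against PAL and -0.91 ± 0.37 in CHREBP against CON, and neither passed (DESeq2 Padj = 0.189 and 0.229). Without CON replicate 1 the first had a Padj of 0.0961, and without CHREBP replicate 3 the second had a Padj of 0.0443.

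The comparison of PAL with BSA asked how hepatocytes respond to an excess of a saturated fatty acid. Here 30 of the 35 genes could be tested, and 4 rose and 2 fell at a DESeq2 Padj under 0.1. By edgeR, and with TMM size factors, 4 rose and 4 fell, with *Echs1* and *Acaa1a* just under the threshold (adjusted p = 0.0957 and 0.0973 by edgeR). Over all 12827 genes tested, 6.65% were called higher and 7.6% lower. The median log2 fold change was 0.05 for the 30 genes and 0.00 for all genes tested, and for the 30 it ran from 0.03 without PAL replicate 1 to 0.08 without PAL replicate 4. The hepatocyte and cholangiocyte marker sums also separated PAL from BSA without overlap, the first higher and the second lower in PAL, and their part in these changes was not tested. The DESeq2 calls were spread over the carnitine shuttle, mitochondrial oxidation and the further PPAR targets, and none was peroxisomal.

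*Cpt1a* encodes the carnitine palmitoyltransferase that commits long-chain fatty acids to mitochondrial oxidation and lies at chr19:3322334-3385733 (plus strand, GRCm38). Its normalized counts were 1601, 1896, 1803 and 1676 in BSA and 2073, 2198, 2100 and 2105 in PAL. The groups did not overlap, and the gene rose by 0.29 ± 0.06 on the log2 scale (SE, DESeq2 Padj = 0.000182). Means in the 4 esiRNA groups then stayed between 2139 and 2168, and no further call was made. The other shuttle genes did not pass: *Cpt2*, the transferase of the inner membrane, changed by -0.22 and *Slc25a20*, the carnitine-acylcarnitine translocase, by 0.16 on the log2 scale.

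In mitochondrial β-oxidation, *Acaa2*, the thiolase of the last step, had normalized counts of 541, 527, 543 and 611 in BSA and 731, 647, 740.2 and 616 in PAL. Every PAL library was above every BSA library, with a log2 fold change of 0.31 ± 0.09 (DESeq2 Padj = 0.00683). *Acadvl*, the dehydrogenase for very long acyl chains at the first step, went the other way. It had 1205, 1049, 1078 and 1027 normalized counts in BSA and 935, 946, 912 and 896 in PAL, again without overlap, and fell by 0.24 ± 0.07 on the log2 scale (DESeq2 Padj = 0.0113). Without BSA replicate 1, the highest library, that call was lost (Padj = 0.112). The other 11 enzymes of this step group were not called. Nearest to the threshold was *Echs1*, the short-chain enoyl-CoA hydratase, with a log2 fold change of -0.17 ± 0.07 (DESeq2 Padj = 0.103), which was called without BSA replicate 1 (Padj = 0.0851). In the peroxisomal group *Acaa1a*, a thiolase, had a log2 fold change of -0.17 ± 0.07 (DESeq2 Padj = 0.102).

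The thioesterases *Acot1* and *Acot2*, which release free fatty acids from acyl-CoA, both rose. *Acot1* stood at 2107, 2030, 2134 and 2074 in BSA and at 2457, 2636, 2752 and 2722 in PAL, a separation of the groups with a log2 fold change of 0.35 ± 0.06 (DESeq2 Padj = 4.66e-08). *Acot2* stood at 37.7, 74.5, 63.1 and 39.6 in BSA and at 106, 70.4, 101 and 99.5 in PAL. Those ranges overlapped by 1 PAL library, and the log2 fold change was 0.80 ± 0.23 (DESeq2 Padj = 0.00708), or 74.3%. *Vnn1* had 494, 447, 438 and 547 normalized counts in BSA and 275, 239, 210.2 and 222 in PAL. The lowest BSA library was well above the highest PAL library, and the gene fell by 50.8%, or 1.02 ± 0.11 on the log2 scale (DESeq2 Padj = 2.40e-18). *Angptl4*, an inhibitor of lipoprotein lipase, and *Ucp2*, a carrier of the inner mitochondrial membrane, had log2 fold changes of 0.04 and 0.20 and were not called.

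**Figure D2:**
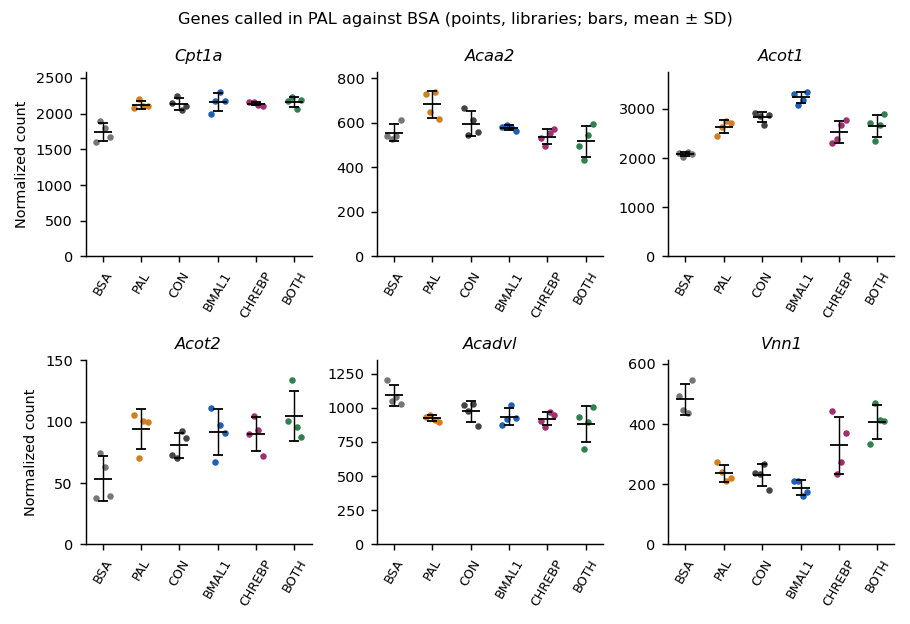
Normalized counts (y axis, from 0) of the 6 genes called in PAL against BSA, for the 6 groups on the x axis; points are the 4 libraries of a group and bars the mean ± SD. *Vnn1* is at 236 ± 28.1 in PAL and 482 ± 50.3 in BSA and is higher again in BOTH at 407 ± 56.8, while the group means of *Cpt1a* lie between 2119 and 2168 in the palmitate-treated groups.

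Further genes of the pathway were drawn from lists of its other members, of which 76 were tested in PAL against BSA. Of these, 4 rose and 16 fell, beside 6.65% and 7.6% of all genes tested. The 16 comprised 5 of 19 receptor partners and co-regulators, 3 of 9 genes of uptake and activation, 3 of 17 peroxisomal genes, 1 of 4 genes of ketone body metabolism and 4 of 11 further PPAR targets. Those that rose comprised 3 of the same 11 further PPAR targets and 1 of the 9 genes of uptake and activation. None of the 16 tested genes of the mitochondrial list was called in either direction. *Cyp4a12a*, a fatty acid ω-hydroxylase, had normalized counts of 359, 348, 293 and 385 in BSA and 70.0, 69.4, 49.2 and 95.6 in PAL, a log2 fold change of -2.25 ± 0.16 (DESeq2 Padj = 2.33e-43). *Acox2*, the peroxisomal oxidase of branched chains and bile acid intermediates, dropped from a mean of 1598 ± 51.7 to 434 ± 31.2 (SD, n = 4 each), a log2 fold change of -1.87 ± 0.07 (DESeq2 Padj = 2.45e-142). *Klf15*, a transcription factor of the fasting response, the acyl-CoA synthetase gene *Acsl1* and the fatty acid transporter gene *Slc27a1* fell by 0.63, 0.59 and 0.50 on the log2 scale. *Plin2*, the lipid droplet coat gene and a PPAR target, was among the 4 that rose, with a log2 fold change of 0.38 (DESeq2 Padj = 1.55e-08).

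**Figure D3:**
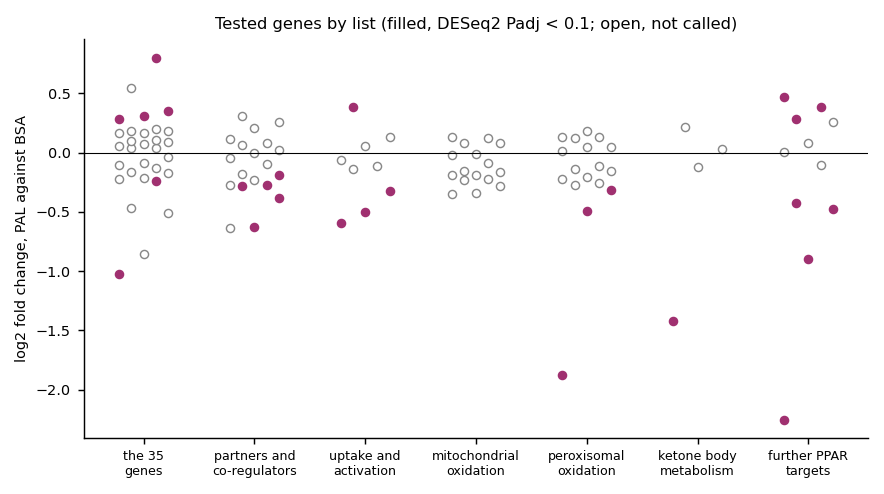
log2 fold changes in PAL against BSA (y axis) of the tested genes among the 35 and in 6 lists of other pathway genes (x axis), 1 point per gene, filled where the DESeq2 Padj was under 0.1. The lowest filled points are *Cyp4a12a* at -2.25 and *Acox2* at -1.87, and no point of the mitochondrial list is filled.

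CON against PAL set transfection with a control esiRNA against palmitate alone. None of the 29 tested genes was called by DESeq2 or by edgeR's quasi-likelihood test, and 3 had an unadjusted DESeq2 p under 0.05 (*Creb3l3*, *Echs1* and *Acaa2*). The same rules called 2.51%, 2.31% and 10.3% of all genes tested, and the 325 DESeq2 calls over all genes were 180 to 343 when 1 library was left out (lowest without CON replicate 3). The interferon-induced sum was higher in every CON library than in every PAL library, and its part was not tested. The 1 call that appeared when a library was left out was *Creb3l3* without CON replicate 1, given above. Among the other pathway genes 3 rose and 2 fell, beside 2.51% of all genes tested called in either direction. Of these 5 genes *Cyp4a12a* had the largest change (0.62 ± 0.19 on the log2 scale, DESeq2 Padj = 0.0504), from a mean of 71.0 ± 19.0 in PAL to 111 ± 3.93 in CON.

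BMAL1 against CON addressed the dependence of the set on *Bmal1* under palmitate. Of the 31 genes tested, DESeq2 called 0 and edgeR 0, and 1 gene had an unadjusted DESeq2 p under 0.05, beside 0.49%, 0.101% and 6.22% of all genes tested. The 68 DESeq2 calls over all genes became 107 without CON replicate 1 and 16 to 32 without each of the other 7 libraries. The hepatocyte marker sum was lower in every BMAL1 library than in every CON library, and its part was not tested. The gene with an unadjusted p under 0.05 was *Acot1*, with 2923, 2850, 2677 and 2883 normalized counts in CON and 3311, 3090, 3189 and 3352 in BMAL1. All BMAL1 libraries were above all CON libraries, and the log2 fold change of 0.19 ± 0.07 did not pass over all genes (DESeq2 Padj = 0.352). Of 77 other pathway genes tested, *Klf15* alone was called, with a log2 fold change of -0.53 ± 0.15 (DESeq2 Padj = 0.0881).

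In CHREBP against CON, 1 of 31 genes was called, beside 3.42% of all genes tested. *Vnn1* had 236, 235, 267 and 181 normalized counts in CON and 444, 235, 272 and 369 in CHREBP. One CHREBP library lay within the CON range, and the log2 fold change was 0.51 ± 0.17 (DESeq2 Padj = 0.0627). edgeR did not make this call (adjusted p = 0.144), and it was lost without CON replicate 1, 2 or 4 or CHREBP replicate 1 or 4 (DESeq2 Padj = 0.134 to 0.450). Without CHREBP replicate 3, *Creb3l3* and *Ucp2* were called lower, *Ucp2* with a DESeq2 Padj of 0.0621. Of the other pathway genes 3 fell and 0 rose, beside 3.42% of all genes tested called in either direction. Those that fell were *Fabp5*, *G0s2* and *Klf15*, with log2 fold changes of -0.25, -0.28 and -0.45.

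BOTH against CON compared equal amounts of esiRNA, and 4 of the 31 genes rose and 3 fell, beside 5.99% and 3.75% of all genes tested. The median log2 fold change was -0.08 for the 31 genes and -0.01 for all genes, and for the 31 it was -0.06 to -0.02 without each library in turn, nearest 0 without BOTH replicate 1. Those that rose were the dehydrogenase gene *Acadl*, the peroxisomal thiolase gene *Acaa1a*, *Angptl4* and *Vnn1*, and those that fell were *Acadm*, *Hadh* and *Ucp2*. Acyl-CoA dehydrogenases of neighboring chain lengths thus changed in opposite directions, the long-chain *Acadl* upward and the medium-chain *Acadm* downward. In every BOTH library the summed interferon-induced genes were higher, and the summed cholangiocyte markers lower, than in every CON library, and their part in these changes was not tested.

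*Acadm* had normalized counts of 801, 866, 823 and 773 in CON, 779, 835, 845 and 786 in BMAL1, 726, 779, 771 and 658 in CHREBP, and 707, 707, 683 and 647 in BOTH. All BOTH libraries were below all CON libraries, and the log2 fold change was -0.26 ± 0.07 (DESeq2 Padj = 0.00884). *Acadl* had 2061, 2037, 2060 and 2141 in CON, 2095, 1946, 2196 and 2157 in BMAL1, 2166, 2172, 2255 and 2203 in CHREBP, and 2183, 2381, 2403 and 2476 in BOTH. Its BOTH libraries were all above CON, with a log2 fold change of 0.18 ± 0.06 (DESeq2 Padj = 0.0154). *Hadh*, which carries out the second dehydrogenation on short and medium chains, had 1867, 1763, 1859 and 1754 in CON and 1452, 1215, 1537 and 1820 in BOTH. One BOTH library lay within the CON range, the log2 fold change was -0.27 ± 0.09 (DESeq2 Padj = 0.0333), and the call was lost without CON replicate 1 or 3 or BOTH replicate 2 (Padj = 0.101 to 0.145). *Hadhb*, the thiolase subunit of the trifunctional protein, was not called (log2 fold change -0.24 ± 0.09, DESeq2 Padj = 0.114), but was without CON replicate 2 or BOTH replicate 1 or 4 (Padj = 0.0304 to 0.0878). Of its 3′-end sequence, 31.3% was shared with the genes *Gm13910* and *Gm9108*. Without BOTH replicate 4, *Acaa2* was also called lower (Padj = 0.029), so that 5 genes fell in that fit in place of 3.

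*Acaa1a* (chr9:119339676-119350299, plus strand) was counted at 746, 862, 851 and 787 in CON, 870.2, 992, 847 and 901 in BMAL1, 903, 844, 976 and 962 in CHREBP, and 1082, 1089, 882 and 1169 in BOTH. All BOTH libraries were above all CON libraries, with a log2 fold change of 0.38 ± 0.09 (DESeq2 Padj = 0.000555). Of the windows of 50 bases in the last 400 bases of its transcripts, 33.1% also occur in *Acaa1b*, a close paralog, so the split of reads between them is uncertain. *Acaa1b* itself had a log2 fold change of -0.54 ± 0.19 in the same comparison (DESeq2 Padj = 0.0596). *Angptl4* had 406, 440.3, 426 and 438 in CON and 519, 537, 568 and 530.0 in BOTH, groups that stood apart with a log2 fold change of 0.33 ± 0.09 (DESeq2 Padj = 0.0090). *Vnn1* reached 333, 471, 415 and 411 in BOTH, above every CON library, with a log2 fold change of 0.82 ± 0.17 (DESeq2 Padj = 3.04e-05), or 76.5%. *Ucp2* had 156, 142, 137 and 108 in CON and 88.5, 68.9, 56.6 and 97.9 in BOTH, and without overlap fell by 42.7%, or 0.80 ± 0.21 on the log2 scale (DESeq2 Padj = 0.00403). *Ucp2* overlaps *Dnajb13* on the other strand, and the use of strand in counting is not given in the sources used here. The same limit holds for *Acaa1a*, which overlaps *Slc22a14* and *Myd88* on the other strand, and for *Acadvl*, which overlaps *Dvl2* and *Mir324*. It also holds for *Acadl* and *Eci2*, which overlap *Gm27934* and *Gm16984*.

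Of the 77 other pathway genes, 2 rose and 7 fell in BOTH against CON, beside 5.99% and 3.75% of all genes tested. *Cyp4a12a* rose, with a log2 fold change of 0.54 ± 0.14 (DESeq2 Padj = 0.00362). The peroxisomal genes *Hsd17b4* and *Scp2* fell by 0.34 and 0.30, and the synthetase gene *Acsl3* fell by 0.48 on the log2 scale.

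BOTH against BMAL1 differed in the *Chrebp* esiRNA and also in total esiRNA (200 against 100 nM), which cannot be told apart, and had the most calls of the set. Of 31 genes 4 rose and 6 fell, beside 6.35% and 4.08% of all genes tested. The interferon-induced and cholangiocyte sums separated BOTH from BMAL1 in the same directions as from CON, and their part was not tested here either. *Vnn1* stood at 212, 209, 159.9 and 175 in BMAL1, far below BOTH, with a log2 fold change of 1.11 ± 0.17 (DESeq2 Padj = 2.29e-09). *Angptl4* was at 320.4, 469, 419 and 437 in BMAL1 and rose by 0.38 ± 0.10 (DESeq2 Padj = 0.00172), without overlap. *Ucp2* was at 186, 148, 124 and 151 in BMAL1 and fell by 0.96 ± 0.22 (DESeq2 Padj = 0.000260), *Acadm* fell by 0.25 ± 0.07 (DESeq2 Padj = 0.0140), and neither gene overlapped between the groups. *Acot1*, which was highest in BMAL1, had 2718, 2353, 2668 and 2894 in BOTH and fell by 0.29 ± 0.07 (DESeq2 Padj = 0.00167), again without overlap.

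The remaining calls of that comparison were each lost without one or another library. *Slc25a20* had 134, 129.6, 184 and 154 in BMAL1 and 118, 116, 102 and 117 in BOTH, with no overlap and a log2 fold change of -0.42 ± 0.15 (DESeq2 Padj = 0.0724). The call was lost without BMAL1 replicate 3 or 4 or BOTH replicate 2 or 3 (Padj = 0.115 to 0.340), and in the fit of all 24 libraries (Padj = 0.117). *Eci2*, an isomerase for unsaturated chains, had 2035, 2007, 1934 and 2206 in BMAL1 and 1677, 1534, 1754 and 1999 in BOTH. The ranges overlapped, the log2 fold change was -0.24 ± 0.08 (DESeq2 Padj = 0.0536), and the call was kept only without BMAL1 replicate 3 or BOTH replicate 4 (without each of the other 6 libraries, Padj = 0.101 to 0.224). *Hadh* stood at 1772, 1787, 1766 and 1849 in BMAL1. It fell by 0.25 ± 0.09 (DESeq2 Padj = 0.0455), lost without BMAL1 replicate 2 or 4 or BOTH replicate 1 or 2 (Padj = 0.108 to 0.190). *Acadl* rose by 0.17 ± 0.06 (DESeq2 Padj = 0.0342), lost without BMAL1 replicate 2 or BOTH replicate 3 (Padj = 0.186 and 0.105). *Acaa1a* rose by 0.22 ± 0.09 (DESeq2 Padj = 0.0952, edgeR adjusted p = 0.117) and was kept only without BMAL1 replicate 2 or BOTH replicate 3 (otherwise Padj = 0.181 to 0.274). Without BOTH replicate 4, *Acaa2* and *Hadhb* were called lower as well (Padj = 0.0883 and 0.0522). The number of genes called lower was 3 without BMAL1 replicate 4 or BOTH replicate 2, in place of 6. Among the other pathway genes 2 rose and 7 fell, beside 6.35% and 4.08% of all genes tested, with *Acaa1b* (-0.62 ± 0.19) changing most.

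CHREBP against BMAL1 gave 1 higher and 1 lower call among 31 genes, beside 2.9% and 0.915% of all genes tested. *Vnn1* was higher in CHREBP by 0.80 ± 0.17 on the log2 scale (DESeq2 Padj = 0.000145), with no overlap. *Acot1* had 2318, 2380, 2672 and 2776 in CHREBP and was lower by every library, with a log2 fold change of -0.35 ± 0.07 (DESeq2 Padj = 6.69e-05). Without CHREBP replicate 3, *Ucp2* was called lower too (Padj = 0.00619), and without CHREBP replicate 4, *Eci2* was (Padj = 0.0954). *Vnn1* and *Acot1* thus stood in opposite order in these groups, *Vnn1* lowest and *Acot1* highest in BMAL1.

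BOTH against CHREBP, which share column 3 and differ in the *Bmal1* esiRNA and in total esiRNA (200 against 100 nM), gave no call by DESeq2 or by edgeR among 31 genes, with an unadjusted DESeq2 p under 0.05 for 2 (*Angptl4* and *Acaa1a*). The same rules held for 0.994%, 0.382% and 7.4% of all genes tested, and the 138 DESeq2 calls over all genes were 56 (without CHREBP replicate 3) to 217 (without BOTH replicate 4) when 1 library was left out. *Angptl4* had 472, 473, 439 and 419 in CHREBP, below all BOTH libraries, and a log2 fold change of 0.26 ± 0.09 that did not pass (DESeq2 Padj = 0.257). *Acaa1a* was called without BOTH replicate 3 (Padj = 0.0953) and *Hadh* without BOTH replicate 4 (Padj = 0.031). No other pathway gene was called.

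The interaction, which tests whether both esiRNAs together gave more or less than the sum of each alone on the log2 scale, was not separable from total esiRNA (200 nM in CON and BOTH, 100 nM in BMAL1 and CHREBP). It was not called for any of the 31 genes by DESeq2 or by edgeR. An unadjusted DESeq2 p under 0.05 was found for 3 (*Slc25a20*, *Vnn1* and *Angptl4*), and the shares of all genes were 1.47%, 0.879% and 7.77%. The 204 DESeq2 calls over all genes were 104 (without CON replicate 3) to 291 (without BOTH replicate 4) when 1 library was left out. *Vnn1* had an interaction of 0.60 ± 0.24 on the log2 scale (DESeq2 Padj = 0.265), called without CHREBP replicate 1 (Padj = 0.0279).

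A likelihood ratio test over CON, BMAL1, CHREBP and BOTH called 8 of the 31 genes, beside 9.92% of all genes tested: *Acadm*, *Acadl*, *Hadh*, *Acaa1a*, *Angptl4*, *Acot1*, *Vnn1* and *Ucp2*. The calls of *Acadl* and *Hadh* were not made by edgeR (adjusted p = 0.133 and 0.156). With TMM size factors the test called 7 genes, and with a replicate block 9. *Acadl* was lost without CON replicate 1, 2 or 3 or BOTH replicate 2, 3 or 4 (DESeq2 Padj = 0.112 to 0.166), and *Hadh* was kept only without CHREBP replicate 2 or 4 or BOTH replicate 4 (otherwise Padj = 0.112 to 0.296). *Eci2* was called without CON replicate 1, CHREBP replicate 4 or BOTH replicate 4 (Padj = 0.00435 to 0.0981), *Creb3l3* without CHREBP replicate 3 (Padj = 0.0653), and *Acaa2* without BOTH replicate 4 (Padj = 0.0996).

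**Figure D4:**
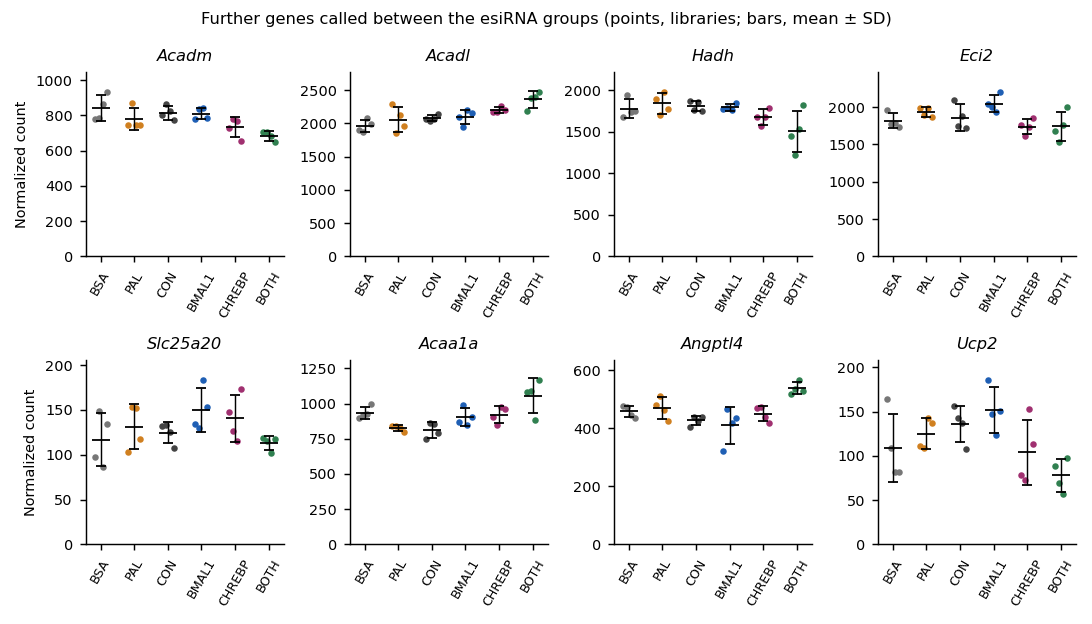
Normalized counts (y axis, from 0) of 8 further genes called between esiRNA groups, for the 6 groups on the x axis; points are the 4 libraries of a group and bars the mean ± SD. *Angptl4* and *Acadl* are highest in BOTH (means 539 and 2361) and *Acadm* and *Ucp2* lowest there (means 686 and 78.0).

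Across the 8 comparisons of 2 groups, 14 of the 31 genes tested in any of them were called at least once, beside 24.5% of the 13915 genes so tested. Those over 3 counts in every library that were never called were the regulators *Ppard*, *Pparg* and *Creb3l3*, *Cpt2*, the oxidation genes *Acads*, *Hadha*, *Hadhb*, *Echs1*, *Decr1*, *Eci1* and *Etfdh*, and *Pex11a*, a gene of peroxisome division. The mean log2(normalized count + 1) over the 26 genes with adequate counts was 8.52 ± 0.07 (SD, n = 4) in BSA and 8.55 ± 0.02 in PAL. It was 8.57 ± 0.02 with control esiRNA and 8.59 ± 0.04, 8.51 ± 0.08 and 8.54 ± 0.08 with the esiRNA to *Bmal1*, to *Chrebp* and to both. The group means of this level, which averages over all roles, lay between 8.51 and 8.59. The peroxisomal level rests on 2 genes, *Acaa1a*, which was called in BOTH against CON, and *Pex11a*, which was not. It was 7.81 to 8.06 in the CON libraries and 8.20 to 8.51 in those of BOTH, without overlap. Of 17 other peroxisomal genes tested in that comparison, 0 were called higher and 3 lower, so the level does not stand for peroxisomal genes at large. The mean of the 13 mitochondrial genes was 9.45 ± 0.05 in CON and 9.36 ± 0.10 in BOTH, with overlapping ranges.

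**Figure D5:**
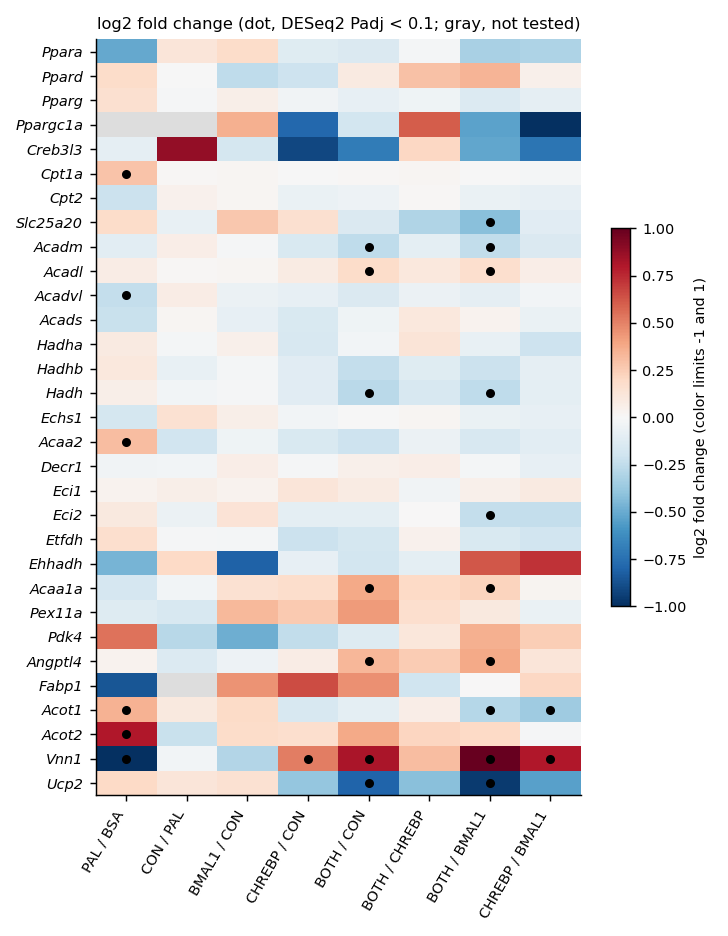
log2 fold changes (color, limits -1 and 1) of the 31 genes tested in any comparison (rows, by role) in 8 comparisons of 2 groups (columns); dots mark a DESeq2 Padj under 0.1 and gray genes not tested. The columns CON / PAL, BMAL1 / CON and BOTH / CHREBP hold no dot, and *Vnn1* holds a dot in 5 columns.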

How the data were processed

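Per the labels and the methods of the study, the authors demultiplexed BRB-seq reads, aligned them to mm10 with STAR and counted them with HTSeq (featureCounts is also named); versions, annotation, strand and the handling of molecular identifiers are not given in the sources used here. The deposited values were raw counts per gene and library. SE values came from the DESeq2 fit and SD values from the 4 libraries of a group, so both include the spread between these libraries. No source says that replicates were separate cultures, so p-values measure the spread between these libraries. Between 5.11% and 6.47% of a library's reads were in no gene; the 5 HTSeq summary lines were left out.

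Genes whose counts summed to 25 or more were tested with DESeq2 1.42.0 (R 4.3.3; Wald test, Benjamini-Hochberg Padj under 0.1 over all genes). PAL against BSA and CON against PAL were fitted as 8 libraries, and the 16 esiRNA libraries together, with a likelihood ratio test across them. Normalized counts used size factors over all 24 libraries. Alternatives were edgeR 4.0.16 with TMM, TMM size factors, no count filter, a replicate block, all 24 libraries in 1 fit, and leaving out each library. The tests were tried on simulated data. The 35 genes and the lists were chosen with earlier results of these data known. Values per library are given for called genes, in the groups where they were called, and for regulators; other pathway genes are named with a normalized mean of at least 50 and a log2 fold change of at least 0.5, at most 6 per comparison, and further ones were chosen after their values were seen. An item of these lists is not reported here. Gene positions are from GENCODE M21 (GRCm38). A planned comparison of protein sequences was not made.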

Additional observations from a re-analysis of the deposited data

Results flagged for a closer look

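In 11 of 156 sets of 4 libraries (26 genes in 6 groups), 1 library stood apart from the other 3 by Dixon's criterion, which flags about 1 in 20 sets by chance. For *Creb3l3*, BMAL1 replicate 1 had a normalized count of 54.3 against 25.5 to 26.5 in the other BMAL1 libraries. *Cpt2* was flagged in 3 groups, with 406 in BSA replicate 3 (others 294 to 301), 283 in CON replicate 4 (others 290.0 to 290.4) and 310 in BOTH replicate 3 (others 268 to 272). *Slc25a20* had 102 in BOTH replicate 3 (others 116 to 118), and *Acadm* had 873 in PAL replicate 2 (others 746 to 749). CHREBP replicate 2 was the lowest library for *Decr1* at 583 (others 687 to 704) and for *Eci1* at 562 (others 650.1 to 667). CON replicate 3 was lowest for *Etfdh* at 262 (others 311 to 320) and highest for *Pex11a* at 82.3 (others 66.1 to 66.4). *Pex11a* was also low in BMAL1 replicate 3 at 60.3 (others 94.6 to 101). The causes were not tested.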

How the results depend on the processing

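The 26 calls of single genes in comparisons of 2 groups, which leave out the likelihood ratio test, had 338 alternative values, none with the opposite sign. TMM size factors and no count filter kept all 26, fitting all 24 libraries kept 25 (not *Slc25a20* in BOTH against BMAL1), and edgeR kept 24 (not *Vnn1* in CHREBP against CON or *Acaa1a* in BOTH against BMAL1). In PAL against BSA, 4 genes were called lower by edgeR and 4 with TMM size factors, in place of 2. In CHREBP against CON, 0 genes were called higher by edgeR. In CHREBP against BMAL1, 2 genes were called lower with all 24 libraries. With a replicate block, 2 genes were called lower in that comparison and 24 of the 26 calls were kept, the exceptions being *Slc25a20* and *Acaa1a* in BOTH against BMAL1 (Padj = 0.122 and 0.121); same-numbered libraries did not deviate together in all pairs (mean correlations -0.0719 to 0.114), so the numbers were not read as pairs.

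Leaving out 1 library gave 0 to 1 genes higher in CON against PAL, 0 to 1 higher and 0 to 2 lower in CHREBP against CON, 2 to 5 lower in BOTH against CON, 0 to 1 higher and 0 to 1 lower in BOTH against CHREBP, 3 to 8 lower in BOTH against BMAL1, 1 to 2 lower in CHREBP against BMAL1 and 0 to 1 higher for the interaction. The likelihood ratio test then called 6 to 9. The likelihood ratio test was not run on all 24 libraries. The causes were not tested. Counts near 3 per library limit *Ppara*, *Ppargc1a*, *Ehhadh*, *Pdk4* and *Fabp1*, for which no change was detectable at this depth.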
